A study of Arabidopsis thaliana with 9 samples.

Results

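AT5G61590 and AT5G07580 are a pair of Arabidopsis loci of the ERF (ethylene response factor) family of transcription factors. They were followed in cultured cells through 12 h of culture with or without estrogen. Both loci were found in the table, each on 1 probe set, so the account rests on 2 of the 16411 genes with a probe set of their own. AT5G61590 was chosen by its measured signal, as one of the largest drops between the start and 12 h on these arrays, and its differences from 0 h are therefore given as a description with no test. AT5G07580 was added as a close relative, and its values played no part in the choice.

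ERF proteins bind DNA through a single AP2/ERF domain, and many of them recognise the GCC box in promoters of defence and ethylene-responsive genes. RefSeq lists AT5G61590 under the synonym DEWAX (Decrease Wax Biosynthesis). DEWAX is known from shoots as a repressor of genes for cuticular wax, with more transcript in the dark than in the light. It has also been tied to defence against a fungal pathogen. RefSeq gives AT5G07580 its locus name and no other gene symbol. No protein or promoter sequence of either gene was used here.

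The cells were the suspension culture line Alex in the Col-0 background (spelled Col-O in the labels), kept in darkness on a rotary shaker. All 9 samples carried the transgenes for estrogen-inducible LHW and T5L1-GFP, including the cultures that received no estrogen. The 3 groups were the starting culture at 0 h, cultures given 5 µM estrogen for 12 h, and cultures kept for 12 h without estrogen, with 3 replicates of each and 1 Affymetrix array per sample. None of the groups had estrogen without the transgenes, so an effect of the hormone and one of the induced genes cannot be told apart. All values below are the deposited log2 signals of a probe set, on which a difference of 1 is a doubling. They came from bulk RNA, in which fewer cells of a type and less RNA per cell cannot be told apart.

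LHW, the induced bHLH gene, had a mean log2 signal of 8.51 ± 0.26 (SD, n = 3) at 0 h and 8.48 ± 0.31 without estrogen, and lay between 10.72 and 11.24 in the 3 replicates with estrogen. Its signal was 2.52 higher with estrogen than without (SE 0.23, limma adjusted p = 0.00506). On the arrays of replicates 1 and 2, 23 background rows had a median log2 signal of 4.20 and single rows from 1.08 to 8.20. These rows were pooled and not matched to the probes of any gene. Replicate 3 stood apart in every group: 37.6% of probe sets had an equal value on 2 or 3 of its arrays, against 1.06% in replicate 1 and 0.833% in replicate 2. Neither ERF locus had such equal values. Results of both ERF loci that rest on replicate 3 are given with and without it, as are those of several other genes.

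AT5G61590 gave a strong signal at 0 h and a signal below the background median at 12 h, with or without estrogen. At 0 h its log2 signal was 9.06, 9.15 and 9.89 in replicates 1, 2 and 3. With estrogen for 12 h it was 2.42, 1.98 and 2.89. Without estrogen it was 2.36, 2.31 and 2.29. The 3 values at 0 h lay far above all 6 values at 12 h, and the values of the estrogen-treated and untreated groups overlapped.

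The means were 9.37 ± 0.45 (SD, n = 3) at 0 h, 2.43 ± 0.46 with estrogen and 2.32 ± 0.03 without. The difference from 0 h was -7.04 (SE 0.28) without estrogen and -6.93 (SE 0.28) with it. These differences correspond to signals 132-fold and 122-fold lower, and no p is given because they chose the gene. Taken by replicate number, the signal without estrogen was 104-, 114- and 194-fold lower than at 0 h. With estrogen it was 99.5-, 144- and 127-fold lower. Both comparisons share the 0 h arrays.

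**Figure D1:**
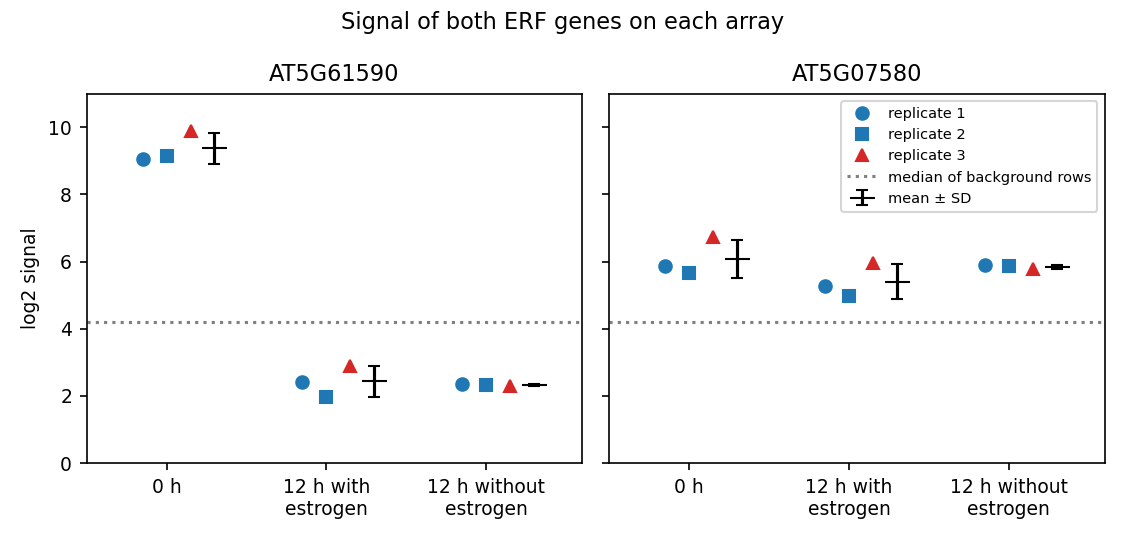
Deposited log2 signal of AT5G61590 and AT5G07580 on each of the 9 arrays, by group, with group means. AT5G61590 lies between 9.06 and 9.89 at 0 h and between 1.98 and 2.89 on the 6 arrays at 12 h, whereas the groups of AT5G07580 overlap.

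The size of the drop is limited on the 12 h side by background. At 0 h the signal of AT5G61590 lay above all 23 background rows in replicates 1 and 2. At 12 h it lay above 8 to 9 of the 23 on those arrays, and below each array's background median. With the 12 h value set to that median, the signal was 28.9-fold lower without estrogen in replicate 1 and 39.0-fold lower in replicate 2. With estrogen these values were 27.6-fold and 35.4-fold. The background rows were not matched to the probes of this gene, so these values are not a lower bound. Replicate 3 had no background rows and gives no such value. The arrays therefore show a low signal for AT5G61590 at 12 h without showing how much transcript, if any, was left.

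Among the 16722 probe sets with 1 gene, AT5G61590 had the largest drop without estrogen and the second with it. Of the 38310 probe sets with a value on all arrays it was in place 5 in both. The genes next to it were close. Without estrogen, AT5G56100 differed by -7.01, AT1G21400 by -6.92, AT1G56220 by -6.88, AT5G63250 by -6.83 and AT3G15450 by -6.66. With estrogen, AT5G56100 (-7.01) lay just ahead of AT5G61590, and AT3G15450 (-6.74), AT1G21400 (-6.68), AT1G56220 (-6.64), AT1G19530 (-6.60) and AT5G63250 (-6.41) just behind. The gap between AT5G61590 and AT5G56100 was smaller than the SE of either AT5G61590 difference. The 12 h values of AT5G61590 also lay below the background median, whereas AT1G56220 dropped from a mean of 11.16 to 4.29 without estrogen, which is above that median. For both reasons the order of these genes is not resolved, and the place of AT5G61590 describes the deposited values only.

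**Figure D2:**
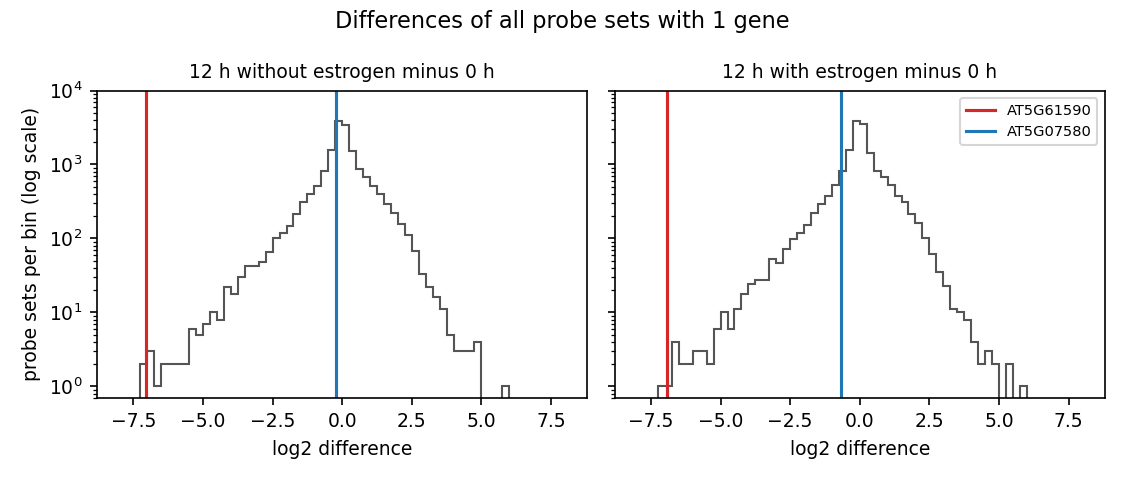
Number of probe sets with 1 gene (log axis) by log2 difference between 12 h and 0 h, for cultures without and with estrogen, with AT5G61590 and AT5G07580 marked. AT5G61590 lies at the lower end of both distributions (-7.04 and -6.93) and AT5G07580 within their bulk (-0.23 and -0.68).

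Estrogen made no detectable difference to AT5G61590 at 12 h. This comparison played no part in choosing the gene. The signal with estrogen was 0.11 higher (SE 0.28, 95% confidence interval -0.52 to 0.75, limma adjusted p = 1), and by replicate number the differences were 0.06, -0.34 and 0.60. Direction thus varied, and the difference was -0.14 with replicates 1 and 2 alone. Of all probe sets, 0.0392% were called higher with estrogen at an adjusted p under 0.05 and 0% lower. Both group means were below the background median, so a change within that range could not be seen at this signal.

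AT5G07580 showed no call in any comparison as deposited. At 0 h its log2 signal was 5.87, 5.66 and 6.72 in replicates 1, 2 and 3. With estrogen it was 5.27, 4.98 and 5.97, and without estrogen 5.90, 5.86 and 5.78. Every pair of groups overlapped, and the highest value at 0 h and with estrogen was that of replicate 3 in each case.

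The means were 6.08 ± 0.56 (SD, n = 3) at 0 h, 5.40 ± 0.51 with estrogen and 5.85 ± 0.06 without. On each array of replicates 1 and 2, the signal of AT5G07580 lay above 13 to 15 of the 23 background rows, with 8 or more of the rows brighter than the gene. It was thus above the median of the pooled background rows and below the brightest of them, and whether it was detected was not tested.

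Without estrogen, the signal of AT5G07580 differed from 0 h by -0.23 (SE 0.32, 95% confidence interval -0.96 to 0.49, limma adjusted p = 0.667). The differences by replicate were 0.03, 0.20 and -0.94, so the negative mean came from replicate 3, and with replicates 1 and 2 alone it was 0.12. With estrogen, the difference from 0 h was -0.68 (SE 0.32, interval -1.40 to 0.05, limma adjusted p = 0.133). That difference was negative in 3 of 3 replicates, at -0.60, -0.68 and -0.75. Of all probe sets, 39.3% were called in either direction without estrogen (27.4% higher, 11.9% lower) and 39.9% with it (28.2% higher, 11.7% lower). Of the 16722 probe sets with 1 gene, to which AT5G07580 belongs, 2721 were called higher and 2279 lower without estrogen. With estrogen 2743 were called higher and 2274 lower. AT5G07580 was outside these calls as deposited.

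The comparison of AT5G07580 with 0 h in estrogen-treated cultures sat close to the threshold. Its call depended on the scaling of the arrays and on how replicate 3 was handled. The labels name no batch, but with replicate 3 set as a block of its own this comparison was called. It was also called with array weights, as given in the last section. With the replicate number as a block its adjusted p was 0.0565, where 16.5% of all probe sets were called lower without estrogen and 16.3% with it. With replicates 1 and 2 alone the difference was -0.64 (adjusted p = 0.0173, limma), where 16.9% and 16.8% of probe sets were called lower. After quantile normalization it was -1.17 (adjusted p = 0.00404), and after centring each array on its median -1.20 (adjusted p = 0.00347). After quantile normalization the signal of AT5G07580 was 6.41 ± 0.40 (SD, n = 3) at 0 h, 5.23 ± 0.33 with estrogen and 5.72 ± 0.21 without. The 0 h values then lay above all 12 h values, and the difference without estrogen was also called, at -0.69 (adjusted p = 0.0471) after quantile normalization and -0.70 (adjusted p = 0.0391) after centring. Under quantile normalization the share of all probe sets called lower was 21.4% without estrogen and 22% with it. Under centring it was 33% and 36.6%.

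The array medians rose from 0 h to 12 h over all probe sets and hardly changed over the probe sets with 1 gene. Over all probe sets they were 5.28 to 5.67 at 0 h and 5.81 to 6.21 at 12 h. Over the probe sets with 1 gene they were 5.07 to 5.40 at 0 h and 5.12 to 5.39 at 12 h. In the fit, the median difference from 0 h over all probe sets was 0.12 with or without estrogen as deposited. Under centring on all probe sets it was -0.35 without estrogen and -0.40 with it. Centring on the probe sets with 1 gene left AT5G07580 at -0.71 with estrogen (adjusted p = 0.0395), and this alternative was chosen after seeing the data. Leaving out replicate 3 of the estrogen-treated group also gave a call (-0.96, adjusted p = 0.0388), and no other single array did.

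**Figure D3:**
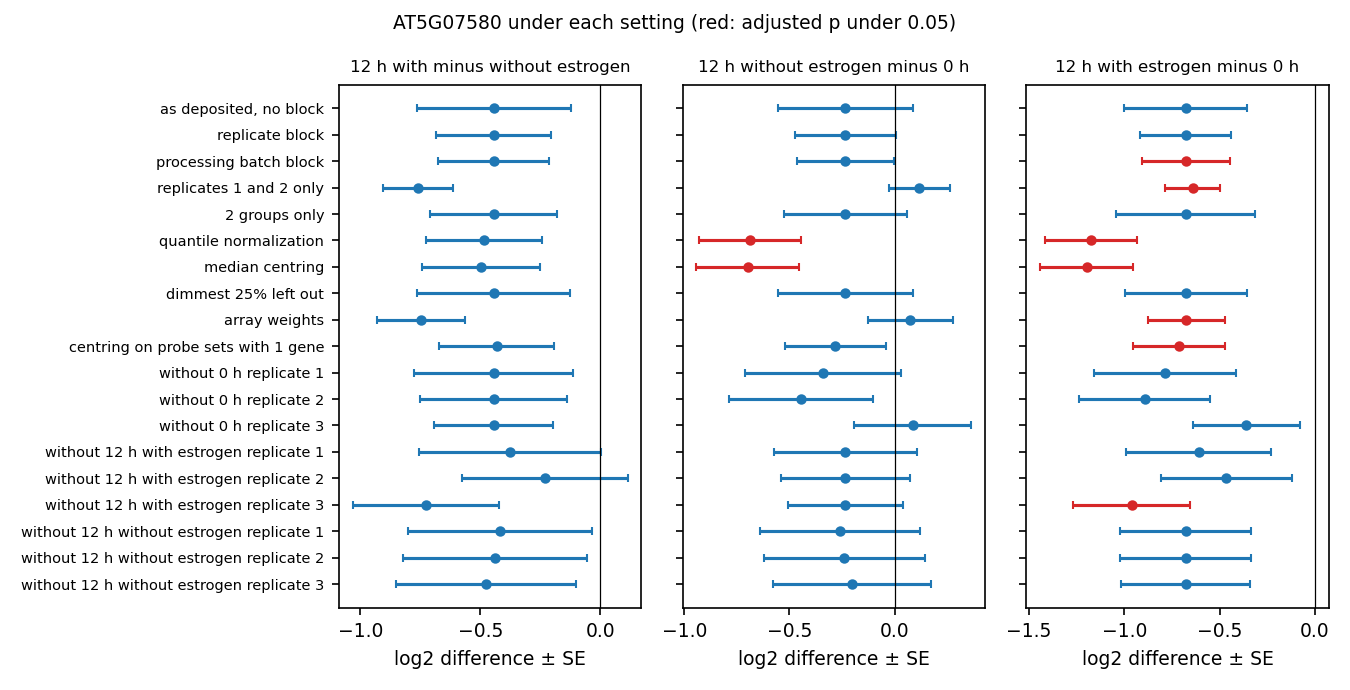
Log2 difference of AT5G07580 between estrogen-treated and untreated cultures, and from 0 h without and with estrogen, under each setting. Red points mark an adjusted p under 0.05 (limma). The processing batch setting sets replicate 3 as a block of its own, and the labels name no batch. As deposited the differences from 0 h are -0.23 and -0.68, neither called. Quantile normalization gives -0.69 and -1.17, both called.

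With estrogen against without at 12 h, AT5G07580 differed by -0.45 (SE 0.32, 95% confidence interval -1.17 to 0.28, limma adjusted p = 1). It was lower with estrogen in replicates 1 and 2, by -0.63 and -0.89, and higher in replicate 3, by 0.18. With replicates 1 and 2 alone the difference was -0.76 (SE 0.14, limma adjusted p = 0.196), and with array weights -0.75 (limma adjusted p = 0.109). The difference over 3 replicates was among the lower ones of the probe sets with 1 gene, of which 2.65% lay below it. AT5G07580 was not called in this comparison under any of the 18 alternatives.

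The spread of both ERF loci had the same shape across the groups. Against the mean of replicates 1 and 2, replicate 3 of AT5G61590 was 0.78 higher at 0 h and 0.69 higher with estrogen, and -0.05 without estrogen. For AT5G07580 these offsets were 0.96, 0.85 and -0.10. The median offset of replicate 3 over probe sets with 1 gene was 0.30, 0.29 and 0.30. Replicate 3 of both genes was therefore raised by more than this median at 0 h and with estrogen, and not without estrogen. The SDs of 0.03 and 0.06 without estrogen were small: 1.67% of probe sets with 1 gene had a smaller SD than AT5G61590 in that group, and 4.74% a smaller one than AT5G07580. In the 0 h and estrogen-treated groups, 79.8% to 89.3% of those probe sets had a smaller SD than these genes. The small SDs without estrogen thus describe 3 arrays, and each SE above comes from the pooled spread of all groups.

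After each gene was centred on its own mean over the 9 arrays, their root mean square difference was 3.09 on the log2 scale. By that measure AT5G07580 came in place 2953 of the 16721 other probe sets with 1 gene. The distance is set mainly by the drop for which AT5G61590 was chosen, so it does not compare the rest of their patterns. The 10 nearest to AT5G61590 were AT1G56220 (0.18), AT5G56100 (0.30), AT3G15450 (0.34), AT1G19530 (0.36), AT5G63250 (0.39), AT1G35625 (0.46), AT1G21400 (0.49), AT4G37220 (0.55), AT5G24490 (0.61) and AT1G30720 (0.68), with the root mean square difference in brackets. A gene with a drop of this size is bound to lie near AT5G61590 by this measure, so the list repeats the contrast that chose it. Their differences from 0 h ran from -7.01 to -5.85 without estrogen and from -7.01 to -5.77 with it.

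AT1G56220, the nearest, had log2 signals of 10.91, 10.90 and 11.69 at 0 h in replicates 1, 2 and 3. It had 4.65, 4.09 and 4.83 with estrogen and 4.06, 4.32 and 4.48 without. Replicate 3 of AT1G56220 was its highest value in each group. Means at 0 h of the 10 genes ran from 9.07 to 11.78, and 6 of the 10 had means below the background median in both 12 h groups. Their differences between estrogen-treated and untreated cultures ran from -0.42 to 0.41, and 0 of 10 were called, where 0.0392% of all probe sets were.

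**Figure D4:**
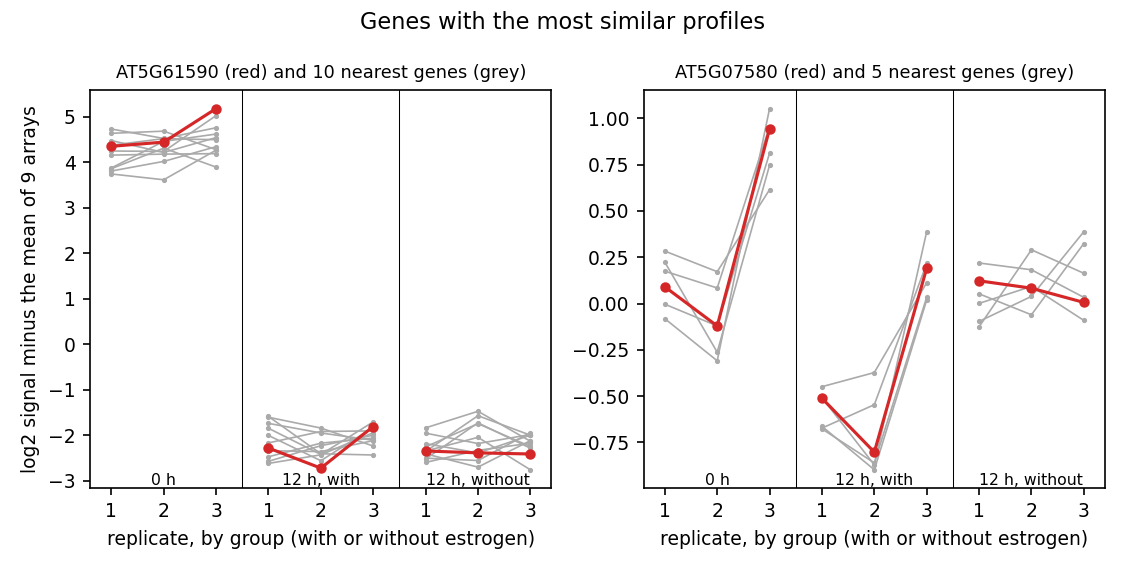
Log2 signal on each array after centring each gene on its own mean, for AT5G61590 with its 10 nearest genes and AT5G07580 with its 5 nearest genes. Lines join the 3 replicates of a group only to show which points belong together. The 10 genes are within a root mean square difference of 0.68 of AT5G61590, and the 5 within 0.19 of AT5G07580.

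The 5 genes nearest to AT5G07580 were AT3G55430 (0.16), AT5G54145 (0.17), AT4G07408 (0.18), AT1G72950 (0.18) and AT5G23130 (0.19), by the same measure. Their differences were -0.30 to -0.11 without estrogen against 0 h and -0.92 to -0.47 with estrogen against 0 h. With estrogen against without, they were -0.65 to -0.24, and 0 of 5 were called, where 0.0392% of all probe sets were. These genes were selected for following AT5G07580 array by array, so their direction adds nothing to its own.

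Both loci lie on chromosome 5, and the genes beside them in the RefSeq order were looked up after the values were seen. AT5G61590 sits between PFK4, for a phosphofructokinase, and another ERF gene, ERF104. Neither neighbour had a probe set of its own here. The next genes outward, AT5G61570 and AT5G61605, had means of 2.0 to 2.8 in all groups and were not called, so they were at background level at 0 h, when AT5G61590 was bright. Beside AT5G07580, the model of AT5G07590 overlaps that of AT5G07580 in the RefSeq table. AT5G07590 had a mean of 7.49 at 0 h, 8.76 with estrogen and 8.81 without. It was higher than at 0 h by 1.27 with estrogen (adjusted p = 0.00151) and by 1.32 without (adjusted p = 0.00126, limma). Whether the probes of AT5G07580 lie in the overlap was not tested.

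The AP2/ERF family was thinly covered. Of 72 listed AP2/ERF genes, 15 had a probe set with 1 gene, and 7 of the 15 had means below the background median in every group. The 5 lists followed the family's groups: 4 of 17 genes in group IX, which holds AT5G61590 and AT5G07580, 0 of 5 in group VII, 3 of 13 in group VIII, 3 of 8 in group X and 5 of 29 among DREB, CRF and SHN genes. With AT5G61590 left out, 1 of 14 was lower at 12 h without estrogen than at 0 h and 0 were higher, with a median difference of -0.10. With estrogen 2 of 14 were lower and 0 higher, with a median of -0.22. The corresponding medians over all probe sets were both 0.12, and the shares of all probe sets called lower were 11.9% and 11.7%. Over the 16722 probe sets with 1 gene, to which these genes belong, the medians were -0.00029 and -0.0039. Of those 16722, 2279 and 2274 were called lower. Between estrogen-treated and untreated cultures, 0 of 15 AP2/ERF genes were called by limma, 0 had an unadjusted p under 0.05, and the differences ran from -0.45 to 0.28. Of all 38310 probe sets, 0.0392% were called in that comparison, and 452 were higher and 403 lower at an unadjusted p under 0.05. The counts of 0 among 15 are near those shares.

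**Figure D5:**
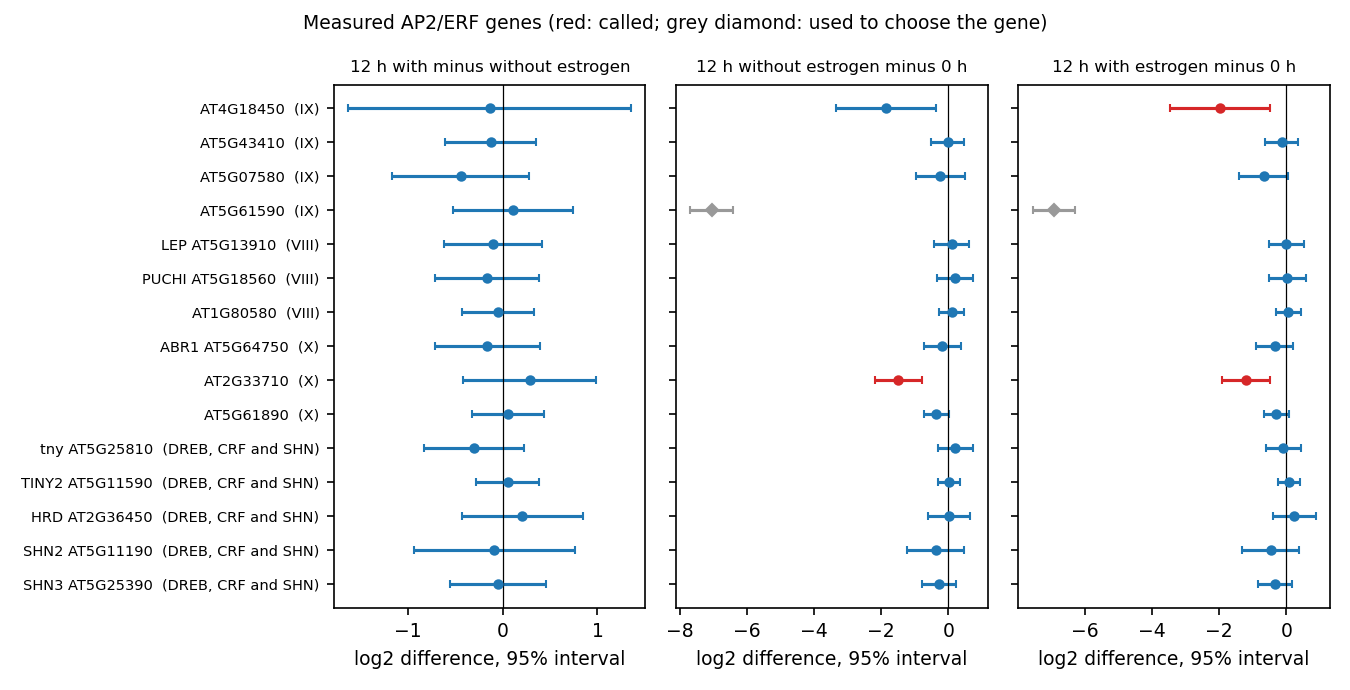
Log2 differences of the 15 measured AP2/ERF genes between estrogen-treated and untreated cultures, and from 0 h without and with estrogen. Against 0 h, AT5G61590 (-7.04 and -6.93) lies far below the others, whose lowest differences are those of AT4G18450 (-1.85 and -1.99).

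The other measured genes of group IX, AT4G18450 and AT5G43410, gave different pictures. AT4G18450 had log2 signals of 7.86, 7.70 and 5.69 at 0 h in replicates 1, 2 and 3. It had 4.78, 4.57 and 5.92 with estrogen and 4.66, 4.73 and 6.31 without. Replicates 1 and 2 were about 3 log2 units lower at 12 h, and replicate 3 was higher, by 0.23 with estrogen and 0.62 without. Over 3 replicates its difference was -1.85 without estrogen (SE 0.66, limma adjusted p = 0.0521) and -1.99 with it (SE 0.66, adjusted p = 0.0386). With replicates 1 and 2 alone the differences for AT4G18450 were -3.09 (adjusted p = 0.000165) and -3.10 (adjusted p = 0.000166). With the replicate number as a block, the call with estrogen was lost (adjusted p = 0.0825, limma), as it was when either of replicates 1 and 2 of the 0 h or estrogen-treated group was left out (0.107 to 0.134). The difference without estrogen became called when replicate 3 of the 0 h group (0.00726), the untreated group (0.0213) or the estrogen-treated group (0.0473) was left out. AT5G43410 had means of 4.05 at 0 h, 3.90 with estrogen and 4.03 without, below the background median and not called.

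In group X, AT2G33710 fell in both comparisons. Its log2 signal was 6.55, 6.62 and 7.14 at 0 h, 5.36, 5.21 and 6.13 with estrogen, and 5.08, 4.98 and 5.79 without. All values of AT2G33710 at 12 h lay below all values at 0 h, by -1.49 in the means without estrogen (SE 0.31, limma adjusted p = 0.00431) and by -1.20 with it (SE 0.31, adjusted p = 0.0124). Leaving out replicate 2 of the estrogen-treated group raised the latter to an adjusted p of 0.0504. AT5G61890 had means of 8.76 at 0 h, 8.46 with estrogen and 8.41 without, and was not called (adjusted p = 0.133 without and 0.201 with estrogen, limma). With the replicate number as a block, AT5G61890 was called lower in both (0.0244 and 0.0434), and with replicates 1 and 2 alone in neither (0.146 and 0.265). It had an equal value, 8.51, on both replicate 3 arrays at 12 h. ABR1, known as a repressor of abscisic acid responses, had means of 9.55, 9.37 and 9.21 at 0 h, without and with estrogen, and was not called.

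None of the group VIII, DREB or SHN genes measured was called against 0 h. In group VIII, PUCHI, a regulator of lateral root and flower development, differed by 0.20 without estrogen and 0.03 with it. LEP differed by 0.11 and -0.00089, and AT1G80580 by 0.11 and 0.06. SHN2 and SHN3 belong to the SHINE clade, known as activators of cuticle formation. SHN2 differed by -0.38 and -0.47, and SHN3 by -0.29 and -0.34. The TINY gene (tny), of the DREB group, differed by 0.21 without estrogen and -0.09 with it, and its relative TINY2 by 0.03 and 0.08. On 2 or 3 arrays of replicate 3, 9 of the 15 AP2/ERF genes had an equal value, which sets their replicate 3 difference between those arrays to 0.

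The genes that DEWAX is known to act on were mostly without a probe set of their own. Of 23 listed wax genes, 2 were measured and 0 were called. ACLA-2, for a subunit of the ATP citrate lyase that DEWAX represses in shoots, had means of 5.32 ± 0.43 (SD, n = 3) at 0 h, 5.75 ± 0.27 with estrogen and 5.73 ± 0.24 without. Its differences from 0 h were 0.42 without estrogen (limma adjusted p = 0.247) and 0.43 with it (adjusted p = 0.222). ACLA-2 had an equal value, 5.46, on both replicate 3 arrays at 12 h. With the replicate number as a block its differences were called (0.0188 and 0.0154), and with replicates 1 and 2 alone they were not (0.111 and 0.0895). After quantile normalization they were -0.02 and -0.05, and after centring -0.05 and -0.08, so the direction of ACLA-2 depended on the scaling. WSD1, a wax ester synthase of stems, lay between 1.88 and 2.37 on all 9 arrays, below the background median.

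Of 7 listed defence genes, the 3 measured were the plant defensin genes PDF1.2, PDF1.2b and PDF1.2c, and 0 were called. The mean signals of all 3 were below the background median in every group, at 4.03, 3.65 and 3.72 for PDF1.2b at 0 h, without and with estrogen, so no level or change of these genes could be read. Their median difference from 0 h was -0.00255 without estrogen and -0.02 with it. With the replicate number as a block, PDF1.2b passed the threshold without estrogen (-0.38, adjusted p = 0.0334, limma), within that range.

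Of 17 listed genes of ethylene synthesis and signalling, 2 were measured. RTE1, which acts with the ethylene receptor ETR1, fell from a mean of 8.49 ± 0.10 (SD, n = 3) at 0 h to 7.34 ± 0.18 without estrogen (-1.15, limma adjusted p = 0.000981) and 7.25 ± 0.27 with it (-1.24, adjusted p = 0.000605). EIN3, the transcription factor at the end of the ethylene pathway, had means of 11.73, 11.35 and 11.42 at 0 h, without and with estrogen. Its differences were not called (limma adjusted p = 0.0997 and 0.179). They were called with the replicate block (0.00726 and 0.0168) and with replicates 1 and 2 alone (0.0259 and 0.0403).

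AT5G61590 is known to be higher in darkness, and the list of genes that rise in dark or sugar-starved tissue was read beside it. The cells were kept in darkness, so no comparison here sets light against dark, and a link to darkness or sugar was not tested. Of 21 listed, 4 were measured, and all 4 were called lower at 12 h than at 0 h with and without estrogen, where 11.7% and 11.9% of all probe sets were called lower. This list was drawn up with earlier results of these data known, so its direction is not independent evidence. MCCB, for a subunit of the leucine-degrading methylcrotonyl-CoA carboxylase, had means of 10.22 at 0 h, 6.22 without estrogen and 6.18 with it. ATG8E, of the autophagy machinery, differed by -3.26 and -3.32, and AKINBETA1, a subunit of the SnRK1 energy-sensing kinase, by -2.40 and -2.39. BZIP53, a transcription factor active when energy is low, differed by -1.13 and -1.18, and was called in both. Its call without estrogen was lost without replicate 3 at 0 h (adjusted p = 0.0787) or untreated replicate 1 (0.0895) or 2 (0.0865). Its call with estrogen was lost without replicate 3 at 0 h (0.0644) or estrogen-treated replicate 1 (0.0697) or 2 (0.0784). The median of the 4 was -2.83 and -2.85, against 0.12 over all probe sets in both. Over the probe sets with 1 gene the medians were -0.00029 and -0.0039. Between estrogen-treated and untreated cultures 0 of the 4 were called, where 0.0392% of all probe sets were.

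Markers of other cell types were largely not covered. Of 10 green tissue markers 2 were measured. RCA, which encodes Rubisco activase, had means of 7.92 ± 0.35 (SD, n = 3) at 0 h, 4.97 ± 0.31 with estrogen and 4.72 ± 0.50 without, so it moved the same way as AT5G61590, and its part in that result was not tested. SBPASE, of the Calvin cycle, lay between 2.94 and 3.93. Of 5 root hair markers, EXPA7 (3.50 to 4.23) and EXPA18 (2.94 to 3.49) were measured and not called. No marker of shoot epidermis, the tissue in which DEWAX is best known, had a probe set of its own among the 4 listed, so the presence of such cells was not tested.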

How the data were processed

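The authors deposited 1 log2 signal for each probe set and array, and the submitters' processing notes name Affymetrix Expression Console 1.3. How probes were summarised, how arrays were normalized, and which genome build was used is not given in the sources used here. Per the labels' protocols, the arrays were hybridised with sense-strand DNA labelled with biotin. Of 38506 rows, 38310 had a value on all 9 arrays, and 196 control rows did not. The annotation gave 1 gene for 16722 probe sets, several for 759 and none here for 20829. RefSeq's TAIR10.1 table named 16574 of the 16722, and where a gene had several probe sets, the one with the highest mean stood for it.

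A mean per group was fitted in R 4.3.3 by lmFit of limma 3.58.1 over the 9 arrays, followed by eBayes, whose prior degrees of freedom came to 3.07. Two-sided p-values were adjusted by Benjamini-Hochberg over the 38310, with a call at an adjusted p under 0.05. The procedure was first tested on simulated data, with noise drawn independently for each array. It recovered 77 of 100 changes of 2 log2 units and 98 of 100 changes of 4, with 10 false calls. The simulation held neither the shared deviation nor the equal values of replicate 3. Plots used Python 3.11.15 and matplotlib 3.10.9. Arrays give no read depth, so their number limits the precision. The labels do not say whether the replicates were independent cultures, and p-values rest on a spread between samples that may be technical.

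Both loci and the 12 lists (159 loci, 30 measured) were chosen with earlier results of these data known. Named were both loci, measured genes of group IX, up to 4 genes per other list by p without estrogen against 0 h, the 10 and 5 nearest genes, up to 5 genes around AT5G61590 by size of fall, and LHW. Same-numbered samples deviated together (correlations of 0.24 to 0.38 for replicate 1, 0.17 to 0.28 for replicate 2 and 0.44 to 0.62 for replicate 3), and the number was used as a block on that basis. Replicates 1 and 2 of different groups correlated about as much with each other (0.16 to 0.28), and replicate 3 correlated negatively with both (-0.46 to -0.25). These values set replicate 3 apart and do not show that numbers 1 and 2 pair samples. The planned description of proteins and promoters was not made, because no sequence was used here.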

Additional observations from a re-analysis of the deposited data

How the results depend on the processing

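Results were recomputed under 18 other settings (17 for 10 dim genes, which the filter on dim probe sets removed), 9 of which left out 1 array each and 1 of which (centring on probe sets with 1 gene) was chosen after seeing the data. The number of arrays and the background signal limit what can be seen, and the cause of each change below was not tested.

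With the replicate block, AT5G07580 differed from 0 h with estrogen by -0.68 (limma adjusted p = 0.0565), AT5G07580 and AT5G61590 changed no call, and the probe sets called between estrogen-treated and untreated cultures went from 15 to 23. The pairing block took the AP2/ERF genes called lower without estrogen against 0 h, of 14 without AT5G61590, from 1 to 2. The share of all probe sets called lower there went from 11.9% to 16.5%. Block and pairing rest on numbers that do not separate replicates 1 and 2. Elsewhere that estrogen count was 40 with replicate 3 set as a block of its own, 69 with replicates 1 and 2 only, and 608 with array weights. It was 11 to 95 over the single arrays left out (95, with 22 higher and 73 lower, without untreated replicate 3). At an unadjusted p under 0.05, 452 were higher and 403 lower.

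Beside each AP2/ERF count, all of genes called lower, stands the share of all probe sets called lower. Without estrogen against 0 h the count was 2 with the block of replicate 3 alone (17.1%), array weights (17.4%) or centring on probe sets with 1 gene (14.4%). It was also 2 of the 9 genes left by the dim filter (16.2%). It was 3 with replicates 1 and 2 (16.9%), 4 after quantile normalization (21.4%), 7 after centring (33%), and 1 to 2 with single arrays left out (9.34% to 12.5%). With estrogen it went from 2 to 4 with replicates 1 and 2 (16.8%) or array weights (17.4%), 6 after quantile normalization (22%), 10 after centring (36.6%), and 0 to 3 with single arrays left out (9.22% to 12.4%), with 0 without estrogen-treated replicate 2 and 3 without estrogen-treated replicate 3. For all probe sets, the calls without estrogen against 0 h split into 10501 higher and 4562 lower as deposited, 8966 and 8184 after quantile normalization, and 7981 and 12637 after centring. With estrogen they split into 10789 and 4490, 9131 and 8412, and 8050 and 14022.

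The differences of AT5G61590 from 0 h were negative under all 18 settings, and reached -7.51 without estrogen and -7.45 with it after centring. Its difference between estrogen-treated and untreated cultures, never called, was -0.14 with replicates 1 and 2, -0.16 with array weights, and -0.12 (without estrogen-treated replicate 3) to 0.34 with single arrays left out.

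AT5G07580 without estrogen against 0 h was 0.12 with replicates 1 and 2, 0.074 with array weights, -0.69 after quantile normalization (adjusted p = 0.0471), -0.70 after centring (0.0391), and -0.45 to 0.086 with single arrays left out (0.086 without 0 h replicate 3). With estrogen against 0 h it was called with the batch block (-0.68, 0.0421), replicates 1 and 2 (-0.64, 0.0173), array weights (-0.67, 0.0175), quantile normalization (-1.17, 0.00404), centring (-1.20, 0.00347), centring on probe sets with 1 gene (-0.71, 0.0395) and without estrogen-treated replicate 3 (-0.96, 0.0388). It ran from -0.96 to -0.36 with single arrays left out.

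Of 1536 recomputed values for 87 single-gene differences outside both ERF loci, 1337 kept their sign and side of the threshold, 130 changed sign with no call either way, 52 gained a call and 13 lost one. Sign changed with a call only after centring, in EXPA18 (-0.41 without and -0.47 with estrogen against 0 h), PUCHI (-0.48 with estrogen) and AT1G80580 (-0.46 with estrogen).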
